A study of Mus musculus with 25 samples.

Results

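The 36 genes described here act on fatty acids in mouse embryos. They comprise 2 fatty acid binding proteins, 4 proteins of the carnitine shuttle, 15 proteins of mitochondrial beta-oxidation and its electron acceptors, 2 peroxisomal enzymes, 4 long-chain acyl-CoA synthetases, 2 nuclear receptors and 7 enzymes of synthesis, desaturation and elongation. They were chosen by name, as the rows of the deposited expression tables that carry one of these gene symbols, and all 36 were found among 24708 gene loci per table.

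RNA was profiled in embryos of the BDF1 strain in a study of Fzr1, an activator of the anaphase-promoting complex, and of in vitro fertilisation (IVF). Of the 25 samples, 11 have expression tables that were used here. Blastocysts at embryonic day 4.0 carried the labels Fzr1-OE (3 libraries) and Control (2 libraries), and 2-cell embryos at embryonic day 1.5 carried the labels sIVF, IVF and WT (2 libraries each). The meaning of sIVF is not given in the labels, nor how the Fzr1-OE embryos were made, what the Control embryos received or how many embryos were pooled. For Fzr1-OE and Control mice aged 4 months, subcutaneous fat is represented by the authors' deposited gene ontology tables, and the H3K9me3 samples were not analysed here.

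Levels are FPKM, the sequenced fragments of a gene scaled by its transcript length and by the size of the library, and may be compared between genes because they are per length. The deposited confidence bounds imply 9324167 to 10483442 fragments per blastocyst library and 4742698 to 6377606 per 2-cell library. Across loci, blastocyst libraries correlated at r of 0.982 to 0.987 within a group and 0.974 to 0.979 between groups, on log2(FPKM + 1). The 2-cell libraries correlated at 0.892 to 0.906 within a group and 0.873 to 0.908 between groups, so replicates of a 2-cell group were no more alike than libraries of different groups. Fzr1 itself stood at 12.7, 15.5 and 17.1 FPKM in the libraries labelled Fzr1-OE, against 16.5 and 16.5 FPKM in Control blastocysts (log2 fold change -0.13, limma adjusted p = 0.713). It was therefore not higher in the libraries labelled Fzr1-OE, and every direction below refers to that label. All 18 trophectoderm markers reached 1 FPKM in both blastocyst groups. The 12 cumulus cell markers summed to 1.45 to 4.09 FPKM in blastocyst libraries and 1.26 to 8.17 FPKM in 2-cell libraries; Inhba, Has2, Lhcgr, Fshr, Inha and Foxl2 were at 0 in all 11, and Amhr2 was above 0 in all 11 (up to 8.17 FPKM). The 8 adipocyte markers summed to 1.21 to 1.98 FPKM in blastocyst libraries and 0.491 to 5.70 FPKM in 2-cell libraries, highest in sIVF; Cfd, Adipoq, Lep, Plin1 and Retn were at 0 in all 11, and Lpl was above 0 in all 11 (0.255 to 3.35 FPKM).

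Fatty acids are carried through the cytosol by binding proteins, activated by acyl-CoA synthetases, and moved into mitochondria as carnitine esters. There a cycle of dehydrogenase, hydratase, hydroxyacyl-CoA dehydrogenase and thiolase shortens the chain, and the electron transfer flavoprotein passes electrons from the dehydrogenases to the respiratory chain. Preimplantation mouse embryos use stored lipid and beta-oxidation as an energy source beside pyruvate, and fatty acid synthesis supplies membranes.

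Of these genes, Fabp3 and Etfb differed between blastocysts labelled Fzr1-OE and Control. Their proximal promoters, the 250 bases before the annotated start, are shown because these genes fell together. The sequences are those of RefSeq on GRCm38.p6, which is not the build of the expression tables (mm9). Fabp3 lies at chr4:130308488-130308737 on the forward strand, and Etfb at chr7:43443822-43444071 on the forward strand.
Fabp3: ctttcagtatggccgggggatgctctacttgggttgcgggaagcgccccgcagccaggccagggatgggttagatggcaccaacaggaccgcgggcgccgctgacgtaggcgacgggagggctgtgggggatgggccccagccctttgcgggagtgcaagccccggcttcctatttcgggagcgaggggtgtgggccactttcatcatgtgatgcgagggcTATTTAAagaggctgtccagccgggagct
Etfb: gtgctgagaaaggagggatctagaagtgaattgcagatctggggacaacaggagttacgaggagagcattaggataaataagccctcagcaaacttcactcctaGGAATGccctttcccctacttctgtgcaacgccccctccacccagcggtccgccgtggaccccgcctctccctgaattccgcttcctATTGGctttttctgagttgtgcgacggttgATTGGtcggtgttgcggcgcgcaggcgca
Capitals mark the letters of 7 motifs searched on both strands. The core promoter motifs were the TATA box, written TATAAA, and a related run, written TATTTAA. The upstream motifs were the CCAAT box and the GC box, the second written GGGCGG. The factor motifs were a half-site of nuclear receptors, written AGGTCA, the AP-2 motif, written GCCNNNGGC, and the TEAD motif, written GGAATG. The TATTTAA run was added after the Fabp3 sequence had been read. In Fabp3 it lies 29 to 23 bases before the start and is the motif matched there; it occurs in 4.18% of the 32851 promoters of the same length. Etfb holds TEAD letters 146 to 141 bases before the start, a motif found in 12.6% of promoters. It also holds CCAAT on the reverse strand 59 to 55 and 29 to 25 bases before the start, a motif found in 33.9% of promoters. No motif was matched in both windows. The windows have 64.8% and 55.6% G and C, for Fabp3 and Etfb in that order. These matches describe letters only and show no binding.

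In blastocysts labelled Fzr1-OE, 2 of the 36 genes were lower than in Control and none was higher. The 2 were Fabp3, the heart-type fatty acid binding protein, and Etfb, the beta subunit of the electron transfer flavoprotein. Tests used limma on log2(FPKM + 1) over all loci whose mean FPKM reached 1, with Benjamini-Hochberg adjustment over all loci, and a gene passed at an adjusted p under 0.05. Of the 36 genes, 31 were tested, and Cpt1b, Ehhadh, Ppara, Ppard and Acaca were under the filter. Over all loci, 2.29% passed as higher and 1.92% as lower. The median log2 fold change of the 31 was -0.01, and that of all loci was 0.01. At an unadjusted p under 0.05, 9 of the 31 were reached, against 19.7% of all loci. The 3 libraries labelled Fzr1-OE lay wholly below both Control libraries in 11 of the 31 (18.4% of all loci) and wholly above them in 4 (19% of all loci).

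Fabp3 measured 1757, 1900 and 1849 FPKM in blastocysts labelled Fzr1-OE, against 2983 and 3020 FPKM in Control blastocysts. The groups did not overlap, and the libraries of each group lay close together beside the gap between the groups. The log2 fold change was -0.71 (SE 0.05, 95% confidence interval -0.82 to -0.60), with a limma adjusted p of 0.000193. Fabp3 was the transcript of rank 19 by mean FPKM among all loci in Fzr1-OE and of rank 11 in Control. It made up 43.5% to 44.0% of the FPKM summed over the 36 genes in Fzr1-OE libraries, and 52.8% to 54.4% in Control libraries. The sum of the 36 genes was 4039 to 4322 FPKM in Fzr1-OE and 5553 to 5647 FPKM in Control; without Fabp3 it was 2282 to 2422 FPKM in Fzr1-OE and 2532 to 2664 FPKM in Control. The Fabp3 test was lost with no filter on low values (adjusted p = 0.0560) and with no intensity trend in the variance (adjusted p = 0.0859).

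Etfb measured 503, 587 and 562 FPKM in Fzr1-OE blastocysts, against 763 and 706 FPKM in Control blastocysts. The groups did not overlap, with Fzr1-OE replicate 2 and Control replicate 2 nearest to each other. The log2 fold change was -0.42 (SE 0.08, 95% confidence interval -0.59 to -0.25), with a limma adjusted p of 0.0170. Etfa, the alpha subunit that pairs with it, measured 660, 659 and 637 FPKM in Fzr1-OE and 638 and 622 FPKM in Control. Its libraries overlapped, its log2 fold change was 0.05, and the 95% confidence interval of -0.07 to 0.17 does not reach the change of Etfb. Etfdh, the oxidoreductase that takes electrons from the flavoprotein, measured 26.3, 34.8 and 33.8 FPKM in Fzr1-OE and 35.7 and 34.0 FPKM in Control and did not pass. The Etfb call was lost with no filter (adjusted p = 0.162), with no intensity trend (0.231), with a replicate block (0.182), and when Fzr1-OE replicate 3 (0.0545) or either Control library (0.126 without replicate 1, 0.0930 without replicate 2) was left out. Fragments implied by the deposited bounds, per 1000000 of the library, were 172, 185 and 168 for Etfb in Fzr1-OE and 196 and 193 in Control. That gap is narrower than in FPKM, but implied fragments of Etfb did not keep step with FPKM. They were 62.3 per 1000000 at 43.2 FPKM in 2-cell sIVF replicate 1, against 172 at 503 FPKM in Fzr1-OE replicate 1. The narrower gap is therefore no second measure of Etfb. For Fabp3 they were 1184, 1293 and 1288 per 1000000 in Fzr1-OE and 2080 and 2161 per 1000000 in Control, a gap like that in FPKM.

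**Figure D1:**
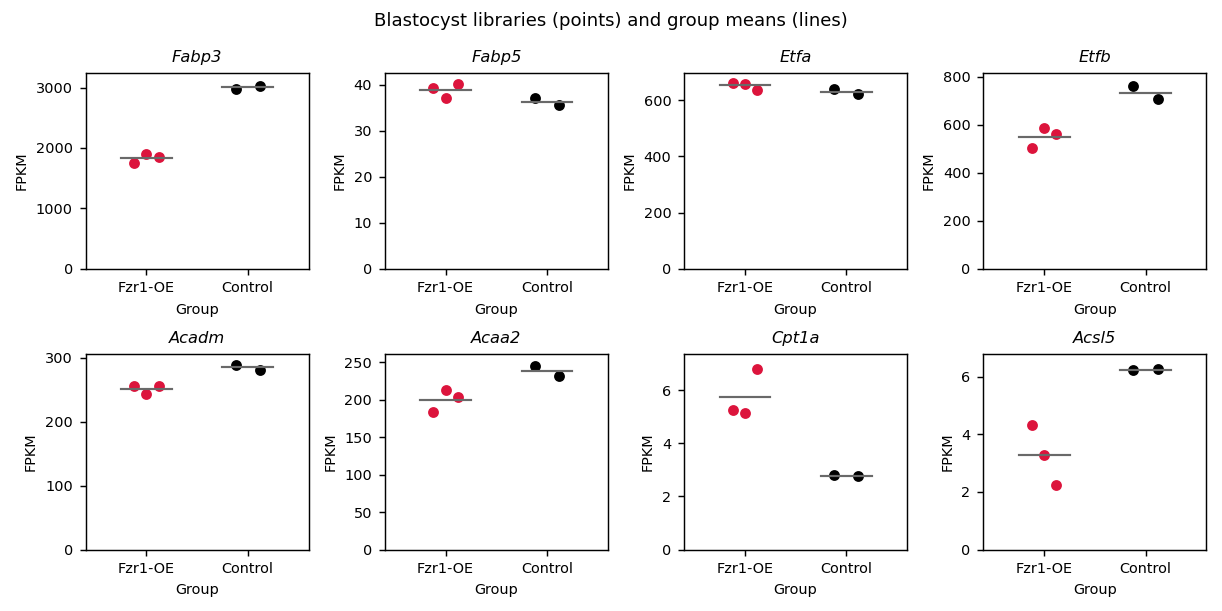
FPKM (vertical axes from 0) of 8 fatty acid genes in blastocyst libraries labelled Fzr1-OE (red, 3 points) and Control (black, 2 points), with lines at group means. Fabp3 lies at 1757 to 1900 FPKM in Fzr1-OE and at 2983 to 3020 FPKM in Control, while Etfa overlaps between the groups; of the 8 genes only Fabp3 and Etfb passed the test.

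Other cell type markers moved between the same libraries. Of 18 trophectoderm markers, 9 passed as lower in Fzr1-OE and 1 (Ly6a) as higher, and their summed level was 4889 to 4999 FPKM in Fzr1-OE libraries, against 7473 to 7664 FPKM in Control libraries. Krt18, a keratin of that epithelium, averaged 2393 FPKM in Fzr1-OE and 3864 FPKM in Control (log2 fold change -0.69, limma adjusted p = 0.000193). Krt8 averaged 989 FPKM in Fzr1-OE and 1507 FPKM in Control (-0.61, adjusted p = 0.000487). Both are abundant and weigh heavily on the sum, which is therefore no measure of all 18 markers. Cdx2 (log2 fold change 0.06) and Tfap2c (0.25) were not lower. The epiblast markers summed to 469 to 534 FPKM in Fzr1-OE and 432 to 440 FPKM in Control. Of the 12, 1 passed as higher, Spic, at means of 142 FPKM in Fzr1-OE and 76.5 FPKM in Control. Spic weighs on the difference in that sum, and stood higher still in WT 2-cell embryos, at 379 and 361 FPKM. The primitive endoderm markers summed to 215 to 228 FPKM in Fzr1-OE and 224 to 237 FPKM in Control, with 1 of 9 tested higher. Most of that sum was Dab2, at means of 178 FPKM in Fzr1-OE and 190 FPKM in Control. Of 4 tested markers of the 2-cell stage, 3 (Zfp352, Arg2 and Obox6) passed as higher in Fzr1-OE. The part of these markers in the Fabp3 and Etfb results was not tested. In whole embryos, fewer cells of a type and less RNA per cell cannot be told apart.

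The other fatty acid binding protein, Fabp5, measured 39.3, 37.2 and 40.3 FPKM in Fzr1-OE and 37.1 and 35.7 FPKM in Control. Every Fzr1-OE library was above both Control libraries, but the log2 fold change was 0.09 with a 95% confidence interval of -0.15 to 0.34, and Fabp5 did not pass. The interval does not include a fall of the size seen in Fabp3.

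In the carnitine shuttle, Cpt1a had the third smallest p of the 31 genes. Cpt1a, the liver-type enzyme that transfers acyl groups to carnitine at the outer mitochondrial membrane, measured 5.25, 5.14 and 6.80 FPKM in Fzr1-OE and 2.79 and 2.77 FPKM in Control. The groups did not overlap, with a log2 fold change of 0.82 (SE 0.22), but the limma adjusted p was 0.0705. Cpt1b, the muscle-type enzyme, was at 0.0760 FPKM or less in all 5 blastocyst libraries. Cpt2, which reverses the transfer inside mitochondria, measured 17.9, 20.5 and 22.4 FPKM in Fzr1-OE and 21.3 and 18.3 FPKM in Control. Slc25a20, the exchanger of acylcarnitine and carnitine, measured 33.5, 32.9 and 38.1 FPKM in Fzr1-OE and 35.4 and 21.0 FPKM in Control, and both overlapped between the groups.

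None of the 4 acyl-CoA dehydrogenases, which open each round of oxidation, passed. Acadm, for medium chains, was the most abundant at 256, 243 and 256 FPKM in Fzr1-OE and 289 and 281 FPKM in Control. Its libraries did not overlap, with a log2 fold change of -0.18 (95% confidence interval -0.33 to -0.03, adjusted p = 0.177). Acadl, for long chains, measured 63.8, 61.7 and 56.5 FPKM in Fzr1-OE and 59.8 and 58.8 FPKM in Control, and overlapped. Acadvl, for very long chains, ranged from 40.9 to 53.3 FPKM in Fzr1-OE and from 40.6 to 44.3 FPKM in Control, and Acads, for short chains, from 5.86 to 8.32 FPKM in Fzr1-OE and from 4.61 to 7.59 FPKM in Control.

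The later steps of the cycle did not pass either. Acaa2, the mitochondrial thiolase, measured 184, 213 and 203 FPKM in Fzr1-OE and 246 and 231 FPKM in Control, with a log2 fold change of -0.26 (adjusted p = 0.125). Hadh, the hydroxyacyl-CoA dehydrogenase for short and medium chains, measured 99.8, 116 and 107 FPKM in Fzr1-OE and 124 and 112 FPKM in Control. Acaa2 separated the groups and Hadh did not. Hadha and Hadhb, the subunits of the trifunctional protein, averaged 23.9 ± 1.88 and 75.0 ± 2.24 FPKM in Fzr1-OE (SD, n = 3), against 27.8 ± 0.304 and 75.6 ± 4.58 FPKM in Control (SD, n = 2). Echs1, the short-chain hydratase, averaged 45.7 ± 4.48 FPKM in Fzr1-OE and 52.9 ± 2.53 FPKM in Control. The isomerases and the reductase that handle double bonds of unsaturated chains included 2 genes lower without overlap that did not pass. These were Eci1 (23.7, 28.5 and 27.1 FPKM in Fzr1-OE, 34.1 and 36.6 FPKM in Control, log2 fold change -0.41, adjusted p = 0.112) and Decr1 (6.79, 5.80 and 3.99 FPKM in Fzr1-OE, 10.1 and 8.34 FPKM in Control, -0.66, adjusted p = 0.155). Eci2 ranged from 26.7 to 39.1 FPKM in Fzr1-OE and from 31.4 to 33.7 FPKM in Control.

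The peroxisomal thiolase Acaa1a ranged from 17.5 to 30.6 FPKM in Fzr1-OE and from 21.8 to 26.1 FPKM in Control, and Ehhadh, the peroxisomal bifunctional enzyme, was listed at 0 in all 11 libraries. The 4 acyl-CoA synthetases summed to 9.90 to 10.1 FPKM in Fzr1-OE and to 14.8 to 14.9 FPKM in Control, and none passed. Acsl5 measured 4.31, 3.29 and 2.25 FPKM in Fzr1-OE and 6.23 and 6.26 FPKM in Control, without overlap, and its log2 fold change was -0.79 with an adjusted p of 0.124. Acsl3 measured 3.47, 3.98 and 5.21 FPKM in Fzr1-OE and 5.76 and 4.41 FPKM in Control, and overlapped. Acsl1 reached at most 0.875 FPKM in Fzr1-OE and 2.26 FPKM in Control, and Acsl4 at most 2.19 FPKM in Fzr1-OE and 1.94 FPKM in Control. The nuclear receptors Ppara and Ppard, which switch on oxidation genes when bound by fatty acids, reached at most 0.0756 and 0.553 FPKM in Fzr1-OE and 0 and 0.761 FPKM in Control, too low to be tested.

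In synthesis, Elovl6 and Elovl5, which lengthen saturated and polyunsaturated chains, were the most abundant. Elovl6 measured 40.8, 36.5 and 36.8 FPKM in Fzr1-OE and 36.5 and 31.5 FPKM in Control. Elovl5 measured 29.9, 29.4 and 24.7 FPKM in Fzr1-OE and 25.1 and 24.6 FPKM in Control. Scd2, a desaturase, measured 7.29, 7.42 and 5.69 FPKM in Fzr1-OE and 4.47 and 4.79 FPKM in Control, without overlap, and did not pass (log2 fold change 0.46, adjusted p = 0.247). Scd1, the other desaturase, averaged 11.3 ± 0.602 FPKM in Fzr1-OE and 11.1 ± 1.34 FPKM in Control. Acly, which makes cytosolic acetyl-CoA from citrate, averaged 14.3 ± 1.28 FPKM in Fzr1-OE and 13.2 ± 5.20 FPKM in Control. Fasn, the fatty acid synthase, averaged 1.02 ± 0.402 FPKM in Fzr1-OE and 1.67 ± 0.131 FPKM in Control, and Acaca, which makes its malonyl-CoA substrate, reached at most 0.784 FPKM in Fzr1-OE and 0.456 FPKM in Control.

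**Figure D2:**
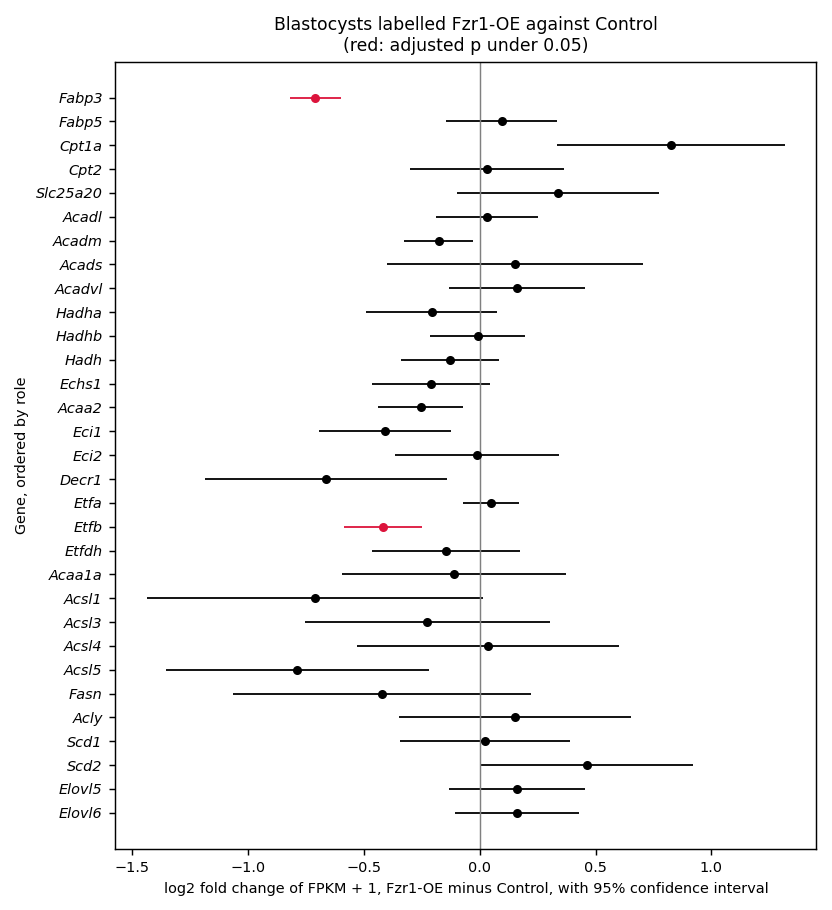
Log2 fold change of FPKM + 1 (horizontal axis), Fzr1-OE minus Control blastocysts, for the 31 fatty acid genes tested, ordered by role, with 95% confidence intervals from limma. Fabp3 at -0.71 and Etfb at -0.42 (red) passed at an adjusted p under 0.05, and the genes in black did not.

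A wider list of 168 genes of fatty acid and lipid metabolism held 118 tested loci, of which 2 passed as higher and 2 as lower in Fzr1-OE, beside 2.29% and 1.92% of all loci; none passed with no filter or with no intensity trend. Me1, the malic enzyme that supplies NADPH, averaged 13.3 ± 0.800 FPKM in Fzr1-OE and 7.13 ± 1.90 FPKM in Control (log2 fold change 0.83, limma adjusted p = 0.0430). Scd3, another desaturase, averaged 5.32 ± 0.736 FPKM in Fzr1-OE and 2.00 ± 0.198 FPKM in Control (1.07, adjusted p = 0.0306). Acsl6, an acyl-CoA synthetase, averaged 9.65 ± 1.24 FPKM in Fzr1-OE and 16.6 ± 0.288 FPKM in Control (-0.73, adjusted p = 0.0423). Pecr, a peroxisomal enoyl-CoA reductase, averaged 19.7 ± 2.63 FPKM in Fzr1-OE and 35.1 ± 0.834 FPKM in Control (-0.81, adjusted p = 0.0155). No gene of this list passed as higher when an Fzr1-OE library was left out, beside 98 to 189 of 9406 to 9439 loci. Plin2, the coat protein of lipid droplets, measured 274, 259 and 256 FPKM in Fzr1-OE and 312 and 322 FPKM in Control, without overlap, and did not pass (-0.27, adjusted p = 0.0571). Srebf1, a regulator of fatty acid synthesis, stood at 1.15, 0.408 and 0.248 FPKM in Fzr1-OE and 0.906 and 0.872 FPKM in Control. The fatty acid transporter gene Cd36 was listed at 0 in all 5 blastocyst libraries.

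Between the stages, most genes of beta-oxidation had higher levels in Control blastocysts than in WT 2-cell embryos, where several were near 0, while the synthetase Acsl4 and the isomerase Eci1 were lower. In 1 fit of all 11 libraries, 31 genes were tested, 25 passed as higher and 2 as lower. Over all loci 45.8% passed as higher and 19.6% as lower. The median log2 fold change of the 31 was 2.86 beside 0.88 for all loci. With quantile normalization the median of the 31 genes was 2.20 and that of all loci -0.02, with 19 genes higher and 3 lower (29% and 31.1% of all loci). With upper-quartile scaling it was 2.43 for the 31 genes and 0.16 for all loci, again with 19 higher and 3 lower (30.9% and 28.3% of all loci). The 3 lower genes under both scalings were Acsl4, Eci1 and Acsl3. The calls of Cpt1a, Slc25a20, Hadhb, Scd1, Scd2 and Elovl6 were lost under both scalings. With each library's dependence on transcript length removed, those of Slc25a20, Hadhb, Scd1, Scd2 and Echs1 were lost. Genes near 0 in 2-cell embryos entered the fit through their blastocyst level alone and so had to differ, which makes these counts a description. No p is given below for genes near 0 in 2-cell embryos. Stage cannot be told apart from any difference in collection or sequencing between the libraries.

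**Figure D3:**
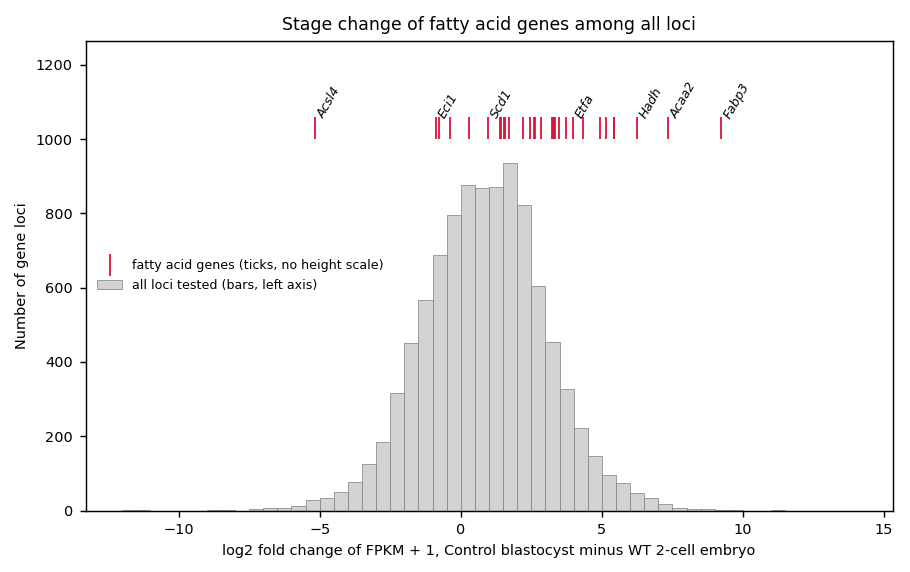
Number of loci (bars, vertical axis) by log2 fold change of FPKM + 1 (horizontal axis), Control blastocyst minus WT 2-cell embryo, with the 31 fatty acid genes as red ticks. The ticks run from -5.16 (Acsl4) to 9.22 (Fabp3) with a median of 2.86, against 0.88 for all loci.

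Fabp3 had the widest stage difference of the 31 genes, at 9.22 on the log2 scale (SE 1.06). In 2-cell embryos it measured 9.92 and 2.62 FPKM in sIVF, 0 and 0 FPKM in IVF, and 0.202 and 20.1 FPKM in WT. These libraries did not agree within any group other than IVF, and the difference without WT replicate 1 or 2 was 7.15 or 11.3. Fabp5 measured 0 and 2.19 FPKM in sIVF, 2.01 and 3.48 FPKM in IVF, and 1.63 and 4.43 FPKM in WT, and its log2 fold change between the stages was 3.31.

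In the carnitine shuttle, Slc25a20 was the member measured most evenly in 2-cell embryos, at 6.07 and 11.4 FPKM in sIVF, 9.08 and 10.5 FPKM in IVF, and 9.86 and 9.56 FPKM in WT. Its stage difference was 1.40. Cpt2 measured 0.875 and 2.27 FPKM in sIVF, 2.76 and 0.956 FPKM in IVF, and 3.63 and 0 FPKM in WT, and Cpt1a 0.985 and 0.991 FPKM in sIVF, 0 and 2.23 FPKM in IVF, and 0.0192 and 0.298 FPKM in WT. Their stage differences were 3.27 for Cpt2 and 1.72 for Cpt1a. Cpt1b was above 0 in 1 of the 6 2-cell libraries, at 1.03 FPKM in WT replicate 1.

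Of the acyl-CoA dehydrogenases, 1 was abundant in 2-cell embryos. Acadm, for medium chains, measured 54.4 and 60.6 FPKM in sIVF, 39.0 and 73.6 FPKM in IVF, and 65.4 and 57.1 FPKM in WT. The other acyl-CoA dehydrogenases reached at most 1.85 FPKM in any 2-cell library. Acadl measured 0.825 and 0.0786 FPKM in WT, Acads 0.337 and 0 FPKM, and Acadvl 0 and 0.0345 FPKM. The stage differences were 5.42 for Acadl, 5.41 for Acadvl, 2.59 for Acads and 2.20 for Acadm. Acadm also passed under quantile normalization and upper-quartile scaling. In Control blastocysts Acadm was still the most abundant of the 4, at 285 ± 5.96 FPKM (SD, n = 2).

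Of the later steps of the cycle, the thiolase Acaa2 and Hadh were near 0 in WT 2-cell embryos. Acaa2 stood at 1.06 and 0.0532 FPKM in WT 2-cell embryos and had a stage difference of 7.34. Hadh stood at 1.11 and 0.173 FPKM in WT and had a difference of 6.24. Both were at 0 in both IVF libraries. Hadhb, 1 subunit of the trifunctional protein, was at 16.0 and 7.85 FPKM in WT, while its partner Hadha was at 3.19 and 1.25 FPKM; their stage differences were 2.64 and 3.23. Echs1 stood at 9.30 and 8.20 FPKM in WT, with a stage difference of 2.47 (1.08 with the length dependence removed, limma adjusted p = 0.0803), and Acaa1a at 0.465 and 0.0442 FPKM, with a difference of 4.33. The 2-cell values of Hadhb ranged from 1.99 to 18.2 FPKM in IVF alone.

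Eci1 went against the other oxidation genes. It measured 61.4 and 56.1 FPKM in sIVF, 97.8 and 51.4 FPKM in IVF, and 72.2 and 61.3 FPKM in WT 2-cell embryos, above each of the 5 blastocyst libraries. The log2 fold change of Control blastocysts over WT was -0.90 (SE 0.28, limma adjusted p = 0.0195), -1.77 with quantile normalization and -1.82 with upper-quartile scaling. As deposited, the call was lost without WT replicate 1 (adjusted p = 0.0821), Control replicate 1 (0.0857) or Control replicate 2 (0.0606). Its relative Eci2 measured 2.07 and 1.08 FPKM in WT and had a stage difference of 3.73. Decr1 was listed at 0 in both WT libraries, beside the Control blastocyst values given above.

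The electron transfer flavoprotein was already abundant in 2-cell embryos. Etfa measured 110 and 93.3 FPKM in sIVF, 48.5 and 84.3 FPKM in IVF, and 43.7 and 35.6 FPKM in WT. Etfb measured 43.2 and 20.3 FPKM in sIVF, 41.1 and 33.1 FPKM in IVF, and 33.4 and 15.5 FPKM in WT. Their stage differences were 3.96 and 4.95, for Etfa and Etfb in that order. Etfdh, which oxidises the flavoprotein, stood at 0 and 0.0329 FPKM in WT and had a stage difference of 5.14. Etfa was the member of highest level after Fabp3 in Fzr1-OE blastocysts, and Etfb in Control blastocysts.

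The acyl-CoA synthetases differed in both directions between the stages. Acsl4, which favours arachidonic acid, measured 1.57, 1.92 and 2.19 FPKM in Fzr1-OE and 1.69 and 1.94 FPKM in Control blastocysts. In 2-cell embryos it measured 95.6 and 79.8 FPKM in sIVF, 35.2 and 50.0 FPKM in IVF, and 99.7 FPKM in WT replicate 1. The authors' table marks the WT replicate 2 estimate as failed, with a value of 143 FPKM outside its own bounds of 0 to 6.27 FPKM, so that value was left out of the fits. Every blastocyst library was far below every 2-cell library used. The log2 fold change of Control blastocysts over WT was -5.16 (SE 0.33, limma adjusted p = 5.71e-06) with WT replicate 1 alone; this SE and p take the spread of that group from the other groups. Acsl5 was listed at 0 in all 6 2-cell libraries, beside the Control blastocyst values given above. Acsl6, of the wider list, was also listed at 0 in all 6. Acsl3 measured 17.6 and 5.73 FPKM in sIVF, 8.57 and 13.8 FPKM in IVF, and 7.99 and 10.9 FPKM in WT, with a stage difference of -0.78 that did not pass as deposited (adjusted p = 0.174). Acsl1 measured 0.682 and 5.87 FPKM in WT and overlapped between the stages.

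The genes of synthesis and elongation had a median stage difference of 1.48 over 6 tested, and 4 passed as higher, beside 45.8% of all loci. Elovl5 stood at 0.522 and 2.46 FPKM in WT, with a stage difference of 3.49, and it alone of the 4 passed under both other scalings. Elovl6 measured 12.6 and 7.20 FPKM in sIVF, 10.2 and 11.5 FPKM in IVF, and 7.89 and 15.3 FPKM in WT, with a stage difference of 1.54. Scd1 measured 7.40 and 3.85 FPKM in sIVF, 6.86 and 6.26 FPKM in IVF, and 3.39 and 7.73 FPKM in WT. Its stage difference was 0.96 (limma adjusted p = 0.0479), and its call was lost in 11 of 15 alternatives. Scd2 stood at 0 and 2.58 FPKM in WT, with a stage difference of 1.57 and a call lost in 8 of 14 alternatives. Acly stood at 2.60 and 6.30 FPKM in WT and did not pass (1.42, adjusted p = 0.0536). Fasn stood at 1.21 and 1.13 FPKM in WT, and its stage difference of 0.30 had a 95% confidence interval of -0.76 to 1.36; it was -0.89 with quantile normalization and -0.25 with upper-quartile scaling.

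**Figure D4:**
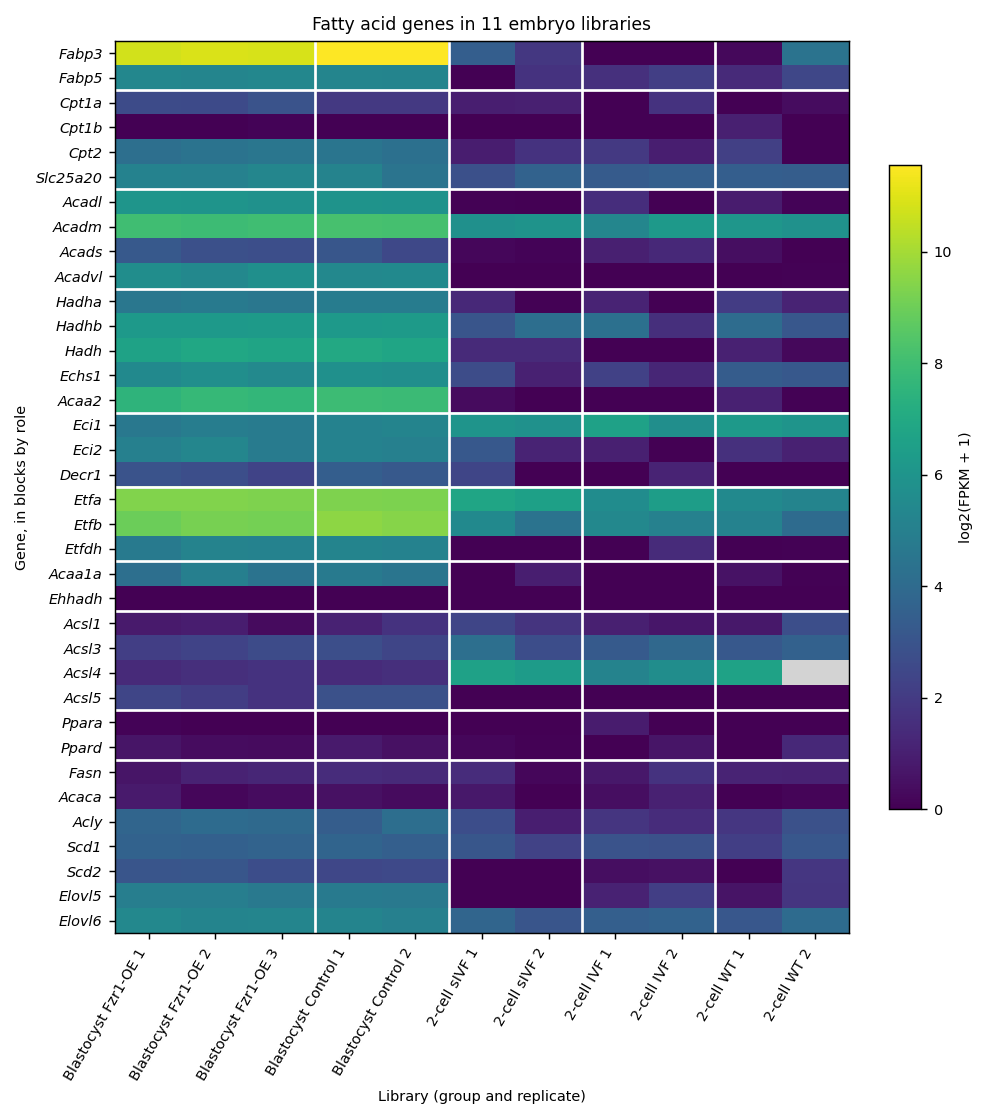
Heat map of log2(FPKM + 1) for the 36 fatty acid genes (rows, in blocks by role) in the 11 libraries (columns, by group and replicate), with the failed Acsl4 estimate of WT replicate 2 in grey. Acadm, Eci1, Etfa, Etfb and Acsl4 are the brightest rows in 2-cell embryos, and Fabp3 reaches 1757 to 3020 FPKM in blastocysts.

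Of the wider list, 109 genes were tested between the stages, 68 passed as higher and 11 as lower, beside 45.8% and 19.6% of all loci. With quantile normalization 18 passed as lower, beside 31.1% of all loci. How many of the list passed as higher in that setting is not reported here, and of all loci 29% did. Plin2 stood at 5.61 and 0.407 FPKM in WT 2-cell embryos and had a stage difference of 6.70, and Agpat2, an enzyme of triglyceride synthesis, had a difference of 6.33. Agpat1, which catalyses the same step, went the other way at -3.80, with means of 2.23 FPKM in Control blastocysts and 43.9 FPKM in WT. Dbi, the acyl-CoA binding protein, averaged 465 FPKM in Control blastocysts and 106 FPKM in WT (2.17), and Acbd5, a peroxisomal acyl-CoA binding protein, averaged 6.69 FPKM in Control blastocysts and 29.4 FPKM in WT (-1.99). The mitochondrial dehydrogenase Hsd17b10 (5.46) and Tecr (4.49), the reductase of chain elongation, were higher in Control blastocysts as well. Cd36, at 0 in blastocysts, measured 1.50 and 1.63 FPKM in sIVF, 2.54 and 0.257 FPKM in IVF, and 2.31 and 2.87 FPKM in WT.

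Among 2-cell embryos, no fatty acid gene passed in any of the 3 comparisons. The 6 libraries shared a fit in which 20 of the 36 genes were tested and 16 were under the filter. IVF against WT passed for 0.0121% of all loci, which is 1 locus, and sIVF against WT and sIVF against IVF for 0%. At an unadjusted p under 0.05, limma reached 1 of the 20 genes in each comparison, against 12.4% of all loci for IVF over WT, 7.09% for sIVF over WT and 11.8% for sIVF over IVF. The median log2 fold change of the 20 was -0.03 for IVF over WT, -0.13 for sIVF over WT and 0.00 for sIVF over IVF, beside 0.09, 0.06 and -0.02 for all loci in the same order. These comparisons share libraries, so they are not independent of each other. Of the 36 genes, 14 were above 0 in every 2-cell library, and 22 were listed at 0 in at least 1.

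Acsl4 and Etfa were the genes with an unadjusted p under 0.05. Acsl4, at the levels given above, was lower in both IVF libraries than in WT replicate 1, by a log2 fold change of -1.23 with WT replicate 2 left out and the spread taken from the other groups (SE 0.35, limma adjusted p = 0.231). It was higher in both sIVF libraries than in both IVF libraries, at 1.04 (SE 0.29, adjusted p = 0.243). The fragments implied by the deposited bounds were closer than the FPKM, at 416 and 319 per 1000000 in sIVF, 242 and 370 per 1000000 in IVF, and 430 per 1000000 in WT replicate 1. They overlapped between sIVF and IVF, but are approximate and no second measure of the level. Etfa was higher in both sIVF libraries than in both WT libraries, with a log2 fold change of 1.34 (SE 0.32, adjusted p = 0.466). Etfa was also higher in IVF than in WT without overlap (0.68, adjusted p = 0.434), and in sIVF than in IVF (0.66, adjusted p = 0.468). Its implied fragments were 347 and 300 per 1000000 in sIVF, 168 and 301 per 1000000 in IVF, and 141 and 122 per 1000000 in WT, so that sIVF and IVF overlapped on this scale.

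Among further genes of small p, none passed. Echs1 measured 5.48 and 1.11 FPKM in sIVF and 3.71 and 1.38 FPKM in IVF, all below both WT libraries. Its log2 fold change was -1.54 for IVF over WT (adjusted p = 0.434) and -1.40 for sIVF over WT (adjusted p = 0.742). Elovl5 was listed at 0 in both sIVF libraries and measured 1.18 and 3.42 FPKM in IVF, and neither comparison with sIVF passed. Fabp3, listed at 0 in both IVF libraries, gave an adjusted p of 0.458 for sIVF over IVF. The wider list gave 76 tested genes and none that passed in any of the 3 comparisons. Plin2 measured 8.25 and 4.68 FPKM in sIVF, 11.8 and 6.87 FPKM in IVF, and 5.61 and 0.407 FPKM in WT, and its log2 fold change of 1.72 for IVF over WT had an adjusted p of 0.426.

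**Figure D5:**
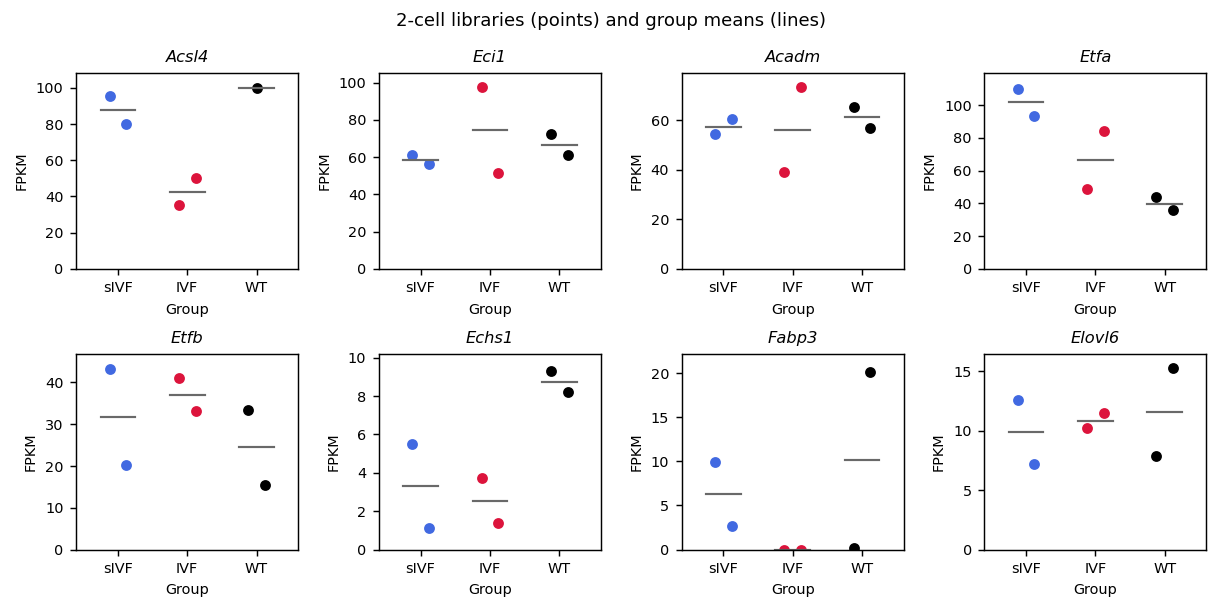
FPKM (vertical axes from 0) of 8 fatty acid genes in 2-cell libraries labelled sIVF (blue), IVF (red) and WT (black), with 2 points per group and lines at group means; WT has 1 point for Acsl4. Acsl4 is lowest in IVF (35.2 and 50.0 FPKM) and Etfa highest in sIVF (110 and 93.3 FPKM), and no gene shown passed the test.

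In subcutaneous fat, the authors' deposited table of gene ontology terms for genes selected in Fzr1-OE against Control mice names 449 genes, and none of the 36. It lists 1605 terms with a Fisher p up to 0.0497, of which 10 have fatty acid in their name and 4 of these have an FDR under 0.05. For fatty acid binding the authors' deposited table counts 5 selected of 34 annotated genes, with 0.84 expected (p = 0.00135, FDR 0.0373). For fatty acid metabolic process the authors' deposited table counts 15 of 354, with 8.75 expected (p = 0.0307, FDR 0.148). No term there has oxidation, carnitine, acyl-CoA or peroxisome in its name. Of the wider list, the authors' deposited table names 5 genes, Agpat2, Cidea, Elovl3, Fabp1 and Thrsp, with no direction. The authors' deposited table for methylation in fat lists 632 terms and 119 genes, none of them among the 36 or the wider list.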

How the data were processed

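Per the labels' protocols, cDNA from lysates was amplified over 18 to 20 cycles before paired-end sequencing. Per the file headers, each table deposited by the authors holds FPKM values of 1 library with confidence bounds for every gene. The build mm9 and, among other tools, Cuffdiff, Cufflinks 2.2.1 and HISAT2 2.1.0 are named without roles, per the submitters' processing notes. For fat, the authors deposited gene ontology tables with how many genes per term were annotated, selected or expected (not read counts) and a Fisher p-value and FDR per term, per the file headers; how genes were selected is not given in the sources used here.

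Groups were taken from sample titles, and where these do not name separate cultures or animals, p-values reflect no more than the spread among these libraries, possibly technical. Tests were two-sided and ran in limma 3.58.1 under R 4.3.3 (eBayes with an intensity trend), on log2(FPKM + 1) of loci whose mean FPKM reached 1. The 2-cell and the blastocyst libraries had a fit each, and the stage comparison used all 11. The pseudocount makes fold changes of genes with low values too small. A failed Acsl4 estimate in WT replicate 2 was set missing. Fragments and depth were computed from the deposited bounds as if these lay 2 Poisson standard deviations from the value. This takes the bounds as counting error only, which did not hold for Etfb. The fragments are approximate where a gene has several transcripts. No table of another series was used. Steps were tested on simulated data. Of the 36 genes, 30 matched RefSeq promoters.

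The members, the wider gene list and the tests were chosen with earlier results of these data known. The rule for named genes gave library values for genes that passed, the 2 of highest mean FPKM per role and stage, and the 3 of smallest p where fewer than 3 passed; of the wider list, up to 3 passing genes per list and direction could be named, with Plin2, Cd36 and Srebf1 in any case; a further gene of that rule is not reported here. Values of further members were added for completeness.

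As alternatives, the filter was dropped or set at 5 FPKM, the pseudocount was 0.1, scaling was by quantiles or the upper quartile, a trend with transcript length was removed per library, eBayes ran without the intensity trend or robustly, and the fit had a replicate block, held only the libraries compared, or left out each library. Python 3.11.15, pandas 2.3.3, numpy 2.4.6 and matplotlib 3.10.9 were also used.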

Additional observations from a re-analysis of the deposited data

How the results depend on the processing

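Of the members that passed or had the smallest p in a comparison, none reversed its direction there under any alternative run. This does not cover members named for their level alone. In blastocysts, the direction of Slc25a20 rested on Control replicate 2, at 21.0 FPKM beside 35.4 FPKM in Control replicate 1. Fasn, added for completeness, reversed between the stages under both other scalings. In blastocysts, the count of the 36 genes lower in Fzr1-OE was 0 with no filter on low values, 0 with no intensity trend, and 1 to 2 when each library was left out in turn. Of the wider list, 0 passed as higher and 0 as lower with no filter, beside 0 and 0 of 16317 loci. With no intensity trend it was also 0 and 0, beside 30 and 11 of 9439 loci. At a filter of 5 FPKM, 1 of 72 genes passed as higher and 5 as lower, beside 223 and 229 of 5863 loci. Of 118 genes, 5 passed as lower with quantile normalization and 4 with the length trend removed, each beside 191 of 9439 loci. Leaving out an Fzr1-OE library gave 0 higher and at most 2 lower of that list. Over all loci, 98 to 189 were then higher and 87 to 161 lower. Leaving out each of the 5 libraries gave a median of the members between -0.15 and -0.0055, beside -0.0005 to 0.0074 for all loci.

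Deviations of same-numbered libraries correlated at -0.04 to 0.07 across loci. Such low values cannot exclude that replicate numbers mark a shared litter, batch or day, which the labels do not say. The main fits were unpaired. With a replicate block, 1 of the 36 genes was lower in Fzr1-OE (Fabp3), and Etfb had a limma adjusted p of 0.182. Of the wider list 0 genes passed as higher and 0 as lower, beside 23 and 24 of 9439 loci. The block changed no other count of the members or the wider list by more than 1.5 times.

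In 2-cell embryos, no member passed under any alternative that kept both libraries of each group compared. Few loci passed in these: the most were 24 higher and 8 lower of 4625, for sIVF over IVF at a filter of 5 FPKM. The median for IVF over WT was -0.19 with quantile normalization and -0.17 with the length trend removed, beside -0.02 and 0.002 for all loci. When libraries were left out it lay between -0.21 and 0.053. For sIVF over WT it then lay between -0.28 and 0.18, and for sIVF over IVF between -0.27 and 0.24.

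Between the stages, the median of the members was 3.72 with a pseudocount of 0.1, 2.59 with no filter, 3.29 at a filter of 5 FPKM, 2.20 with quantile normalization, 2.43 with upper-quartile scaling, 1.89 with the length trend removed, and 2.49 to 2.89 when libraries were left out. Leaving out each library gave 21 to 25 members higher and 1 to 2 lower, and 57 to 67 higher and 7 to 8 lower of the wider list. Each of these fits left 1 library in a group, so the counts are a description only. The median over all loci was 0.820 to 0.998 in them, beside 2.49 to 2.89 for the members. At a filter of 5 FPKM, 59 genes of the wider list were tested. Of these, 41 were higher and 7 lower, beside 2998 and 1346 of 5814 loci. With quantile normalization 18 of 109 were lower, beside 31.1% of all loci. Without Control replicate 1, or without Control replicate 2, the calls of Cpt1a, Hadhb, Scd1, Scd2 and Eci1 were lost; without WT replicate 1 those of Cpt1a, Scd1, Scd2 and Eci1, and without WT replicate 2 that of Hadhb. A filter at 5 FPKM tests fewer genes; the cause of the other shifts was not tested. With the failed Acsl4 value of WT replicate 2 used as deposited, an alternative chosen after seeing the data, no call changed. Low 2-cell levels rest on few fragments, and absence cannot be read from a value of 0.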
